A study of Mus musculus with 12 samples.

Results

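Replication-dependent histone genes encode the core histones H2A, H2B, H3 and H4 and most linker histones H1 that package newly made DNA. The genes described here were all 76 of the 32051 Ensembl genes in the table whose symbol carried a name of the clustered H2A, H2B, H3 or H4 families (H2ac, H2bc, H3c or H4c and a number, or the older Hist names) or of the H1 family (H1f and a number). They comprised 12 H1, 20 H2A, 19 H2B, 12 H3 and 13 H4 genes. On GRCm38, 56 of them lay on chromosome 13, in a block of 24 genes at chr13:21715763-22043676 and a block of 32 genes at chr13:23531050-23934851. Another 10 lay on chromosome 3, 4 on chromosome 11, 3 on chromosome 6, 2 on chromosome 15 and 1 on chromosome 19.

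RNA was sequenced from Th9 cells, the IL-9–producing helper T cells, obtained by culturing naive CD4+ T cells, isolated from spleens of C57BL/6J mice, under CD3 and CD28 stimulation. The medium contained IL-4 (10 ng/mL), TGF-β (1 ng/mL) and, in the initial culture, antibodies against IL-12 and IFN-γ. All 4 groups shared this culture and were collected on day 4, and each had 3 libraries. The DMSO group received the vehicle, the EpA group a cyclic lipopeptide from endophytic fungi, the fatostatin group an inhibitor of the SREBP transcription factors, and the EpA+fatostatin group both compounds. The labels give no age or animal for a library and do not say whether the replicates of a group came from separate mice, so that the p-values measure the spread between these libraries, which may be technical.

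In dividing cells, the replication-dependent genes are transcribed in S phase, and their mRNAs end in a conserved stem-loop in place of a poly(A) tail. The stem-loop binding protein SLBP and the U7 small nuclear ribonucleoprotein direct the cut that makes this end, and the mRNAs are degraded when DNA synthesis stops. NPAT and FLASH, the product of Casp8ap2, act at the histone gene clusters. H1f0 and H1f10 encode linker histones that are made outside S phase from polyadenylated mRNAs, and H1f0 is known for rising in cells that stop dividing or differentiate. H1f6, H1f7 and H1f9 belong to the male germ line and H1f8 to the oocyte.

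The stem-loop was searched for as 2 paired arms of 6 bases around a loop of 4 bases after the stop codon of the annotated transcripts, and it was found in 46 of the 76 genes, 22 to 59 bases after the stop codon (median 32). It is shown here because it is the element that SLBP binds. Each site below is read 5′ to 3′ on the gene's own strand from the GENCODE transcripts of GRCm38, with the arms in capitals and 5 bases on either side. The examples are the highest H1 and H4 genes with a stem-loop, and the H2B and H3 genes with a stem-loop that were called in a comparison.
H1f2 (chr13:23739512-23739527, plus strand): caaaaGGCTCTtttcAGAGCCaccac
H4c9 (chr13:22040966-22040981, minus strand): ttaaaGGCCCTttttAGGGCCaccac
H2bc27 (chr11:58949349-58949364, plus strand): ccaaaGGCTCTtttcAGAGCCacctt
H2bc7 (chr13:23573765-23573780, minus strand): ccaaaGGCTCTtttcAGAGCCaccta
H3c6 (chr13:23561903-23561918, minus strand): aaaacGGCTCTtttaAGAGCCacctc
H3c8 (chr13:23535889-23535904, plus strand): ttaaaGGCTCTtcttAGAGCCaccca

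The arms of H1f2, H2bc27, H2bc7, H3c6 and H3c8 were the same, and the loop differed in H3c6 and in H3c8 from that of the other three. The 16 bases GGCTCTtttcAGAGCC stood in 26 genes, of the H1, H2A, H2B and H3 classes. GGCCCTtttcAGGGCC stood in 7 genes, all of the H4 class, and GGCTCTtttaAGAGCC in 6. The other 7 genes with a stem-loop carried 5 further sequences, among them that of H4c9, which it shared with H4c14.

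The annotated transcripts did not all stop at the stem-loop. In 23 genes the annotated end lay within 100 bases of it, and in the other 23 it lay further on, by 330 bases in H4c9, 369 in H3c6, 840 in H1f2 and 4884 in H1f3. In 7 genes an annotated 3′ UTR of more than 100 bases held no such stem-loop. The genes were H1f0, H1f8, H1f10, H2bc4, H2bc21, H2bc23 and H2bc24. Another 19 genes had no match in an annotated 3′ UTR of 100 bases or fewer, which for H1f5, H2ac22, H2bc13, H3c10 and H3c11 was 0 bases, so that the annotation held no letters to search. The remaining 4 genes had no coding transcript.

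Promoters of 67 members were matched by gene ID to RefSeq windows on GRCm38.p6 of 250 bases before to 50 bases after the transcription start, 68 windows in all. The CCAAT box (CCAAT on either strand) was present in 18 of 18 H2A, 17 of 17 H2B and 10 of 10 H3 promoters and in 8 of 11 H1 promoters, against 37.4% of 32851 promoters in all. In the H4 promoters it was present in 3 of 12. H2A and H2B promoters held a median of 3 CCAAT matches and H3 promoters 2. The octamer ATTTGCAT was present in 7 of 18 H2A and 7 of 17 H2B promoters and in 0 of the H1, H3 and H4 promoters, against 1.74% of all. TATAAA was present in 11 of 18 H2A, 8 of 17 H2B, 4 of 10 H3, 8 of 12 H4 and 4 of 11 H1 promoters, against 13.6% of all.

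Many H2A and H2B genes stand back to back and share the stretch between their starts. A pair of such stretches between the RefSeq starts, on the plus strand, is printed with CCAAT, ATTTGCAT and TATAAA in capitals on either strand. The H2ac22 and H2bc22 stretch is shown because H2ac22 was among the called genes, and the H2ac12 and H2bc12 stretch because H2bc12 was among the 3 highest H2B genes and its stretch holds the octamer. The 250 bases upstream of H2bc27, the H2B gene that rose in EpA against DMSO, stand beside them.
H2ac22 and H2bc22 (chr13:21787249-21787487): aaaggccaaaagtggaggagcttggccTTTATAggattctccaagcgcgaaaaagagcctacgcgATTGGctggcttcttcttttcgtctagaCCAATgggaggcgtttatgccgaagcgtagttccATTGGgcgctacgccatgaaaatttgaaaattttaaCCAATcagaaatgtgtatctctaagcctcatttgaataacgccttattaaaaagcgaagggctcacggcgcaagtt
H2ac12 and H2bc12 (chr13:22035644-22035820): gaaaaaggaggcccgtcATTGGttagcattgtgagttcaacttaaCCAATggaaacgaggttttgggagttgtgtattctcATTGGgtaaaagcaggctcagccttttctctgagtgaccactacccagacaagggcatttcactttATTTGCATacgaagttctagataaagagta
H2bc27 (chr11:58948661-58948910, plus strand): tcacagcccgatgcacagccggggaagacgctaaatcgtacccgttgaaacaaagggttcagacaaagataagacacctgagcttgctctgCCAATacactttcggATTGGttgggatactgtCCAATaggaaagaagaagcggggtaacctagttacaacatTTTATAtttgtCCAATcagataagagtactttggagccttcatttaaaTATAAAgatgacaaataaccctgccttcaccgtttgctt
The first and the third held 4 CCAAT boxes each and the second held 3. Only the second of these 3 stretches held the octamer, and TATAAA was found 1 time in the first and 2 times in the third.

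The values of the table are FPKM, reads scaled to gene length and library size. Whole reads were recovered from them for 98.3% to 98.5% of the nonzero values in the lower range of reads. Higher values, among them those of H1f0, were not part of this check. Reads on genes came to between 36019740 and 43656682 per library, a 1.21-fold range. T cell genes were high in every library, with a summed level of 10 genes of 872.5 to 1624.7 FPKM, which includes *Il9*. The sum was 874.8 to 878.8 FPKM in DMSO, 1398.4 to 1433.0 in EpA, 872.5 to 891.9 in fatostatin and 1569.3 to 1624.7 in EpA+fatostatin. In EpA against DMSO 3 of the 10 genes were called higher and 6 lower, against 14.3% and 13.1% of all genes. Markers of B cells summed to 5.20 to 8.68 FPKM over 5 genes, of CD8 T cells to 6.98 to 10.2 over 2, of myeloid cells to at most 0.575 over 5, of NK cells to at most 0.105 over 3, of erythroid cells to at most 0.524 over 3, and of mast cells or basophils to at most 1.91 over 4. These ranges pool the groups. In EpA against DMSO 1 of 2 CD8 T cell and 1 of 3 tested B cell markers were called lower. The 1 tested myeloid marker and 1 of 3 tested mast cell or basophil markers were called higher there. In fatostatin against DMSO only the myeloid marker was called, again higher, against 7.69% of all genes higher. Whether the libraries were selected for poly(A) is not given in the sources used here. *Rmrp*, *Rpph1*, *Terc* and *Rny3*, whose RNAs carry no poly(A) tail, were listed at 0 in all 12 libraries, whereas *Rny1* and *Rnu12* reached 1.26 and 0.938 FPKM.

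The FPKM of the histone genes were low, with a single exception. Selection for poly(A), which is unknown here, would lower the values of mRNAs that end in the stem-loop against those of polyadenylated mRNAs such as H1f0, so that the levels and shares that follow describe the libraries, and their relation to the amounts of mRNA in the cells was not tested. H1f0, the linker histone of non-dividing cells, stood at 110.9 FPKM on average over the 12 libraries and was the gene ranked 381 of 32051, and it made up 51.0% of the FPKM of all 76 genes. H4c9 followed at 12.4 FPKM, H2bc11 at 7.87, H1f2 at 7.39 and H3c3 at 5.07, and no other member reached 5 FPKM. Of the 76 genes, 57 reached an average of 0.1 FPKM and were tested. Their median was 1.31 FPKM, against 5.00 FPKM over the 13733 genes of the table that reached it. In reads, the median was 32.0 per library for the members and 909.0 for all those genes.

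The order within the classes, in FPKM and so dependent on the annotated gene length, was as follows. Among the H1 genes, H1f0 and H1f2 were followed by H1f10 at 2.61 FPKM, H1f5 at 2.41, H1f8 at 0.852, H1f4 at 0.705, H1f1 at 0.659 and H1f3 at 0.272. H2ac10 at 4.64, H2ac8 at 3.42 and H2ac11 at 3.04 FPKM led the H2A genes, and H2bc11, H2bc12 at 4.05 and H2bc14 at 2.45 FPKM led the H2B genes. H3c3, H3c10 at 4.33 and H3c11 at 3.21 FPKM led the H3 genes, and H4c9, H4c17 at 3.15 and H4c18 at 2.55 FPKM led the H4 genes. Reads would order some genes otherwise. H1f3, of 7425 bases, had 82.7 reads per library on average, against 73.6 for H1f5. H2bc21, of 2620 bases, had 165.3, against 149.2 for H2bc11. Neighbors in the orders by FPKM often overlapped from library to library. H4c9 ranged from 10.6 to 13.8 FPKM and lay above every other core histone gene in each library, whereas H3c10 (2.86 to 6.31 FPKM) and H3c11 (1.37 to 4.2 FPKM) overlapped.

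**Figure D1:**
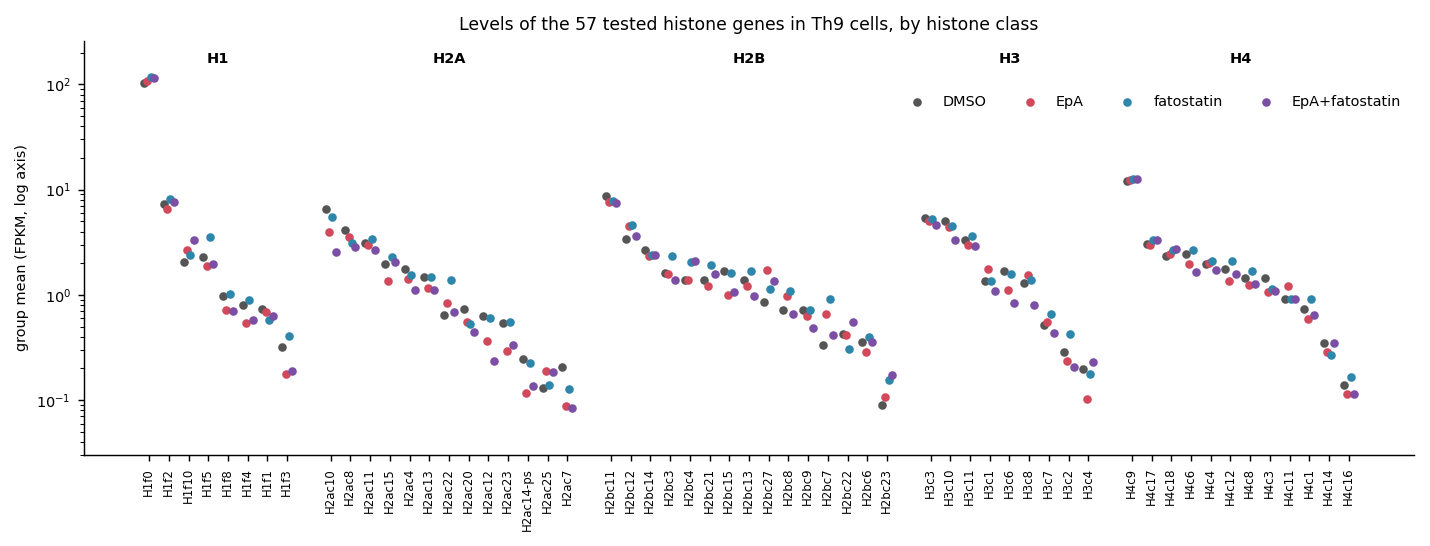
Group means in FPKM (log axis) of the 57 tested histone genes, ordered by level within each class and colored by group. H1f0 stands near 110.9 FPKM, H4c9 near 12.4, and 24 of the 57 genes lie below 1 FPKM.

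The other 19 genes stayed below a mean of 0.1 FPKM and were not tested. Of these, 10 had 0 reads in every library, which for each library allows up to 3 reads. They included the germ line genes H1f6, H1f7, H1f9, H2ac1 and H2bc1. The other 5, H2ac18, H2ac19, H2bc18, H3c13 and H3c14, lay on chromosome 3. Every exon base of these 5 also belonged to another annotated gene, and every 100-base window of their transcripts was found in another gene. Among all 76 genes, 29 had 50% or more of their windows in another gene, and 13 of those were H2A genes. Most H2A genes also overlapped a short annotated gene on the opposite strand, by 138 bases in H2ac8 and H2ac11. Whether reads were counted by strand or at several positions is not given in the sources used here, so that values of such genes are uncertain.

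The spread between replicates followed the number of reads. For the 7 genes with over 100 reads per library, the coefficient of variation within a group had a median of 6.39%. It was 17.8% for the 29 genes with 25 to 100 reads and 36.7% for the 21 genes with under 25. In every library more genes of the table had 2 reads than 1 (1032 to 1138 against 447 to 548), so that a read here may be a mate of a pair, and the number of fragments is then lower than the number of reads. Of the 57 genes, 42 stayed under 100 reads in every library, and a difference between groups within that spread was not detectable for them at this depth.

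**Figure D2:**
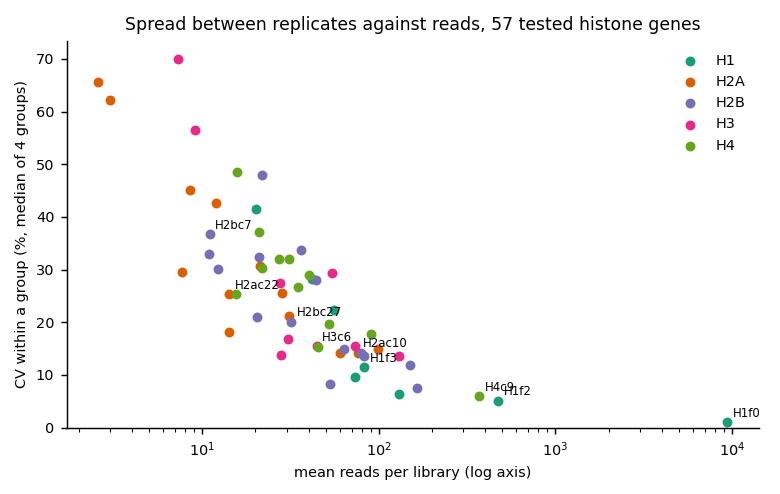
Coefficient of variation within a group (in percent, median of the 4 groups) against mean reads per library (log axis) for each of the 57 tested genes, colored by class. It falls from a median of 36.7% under 25 reads to 6.39% over 100 reads, with H1f0 at the lower right.

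The summed FPKM of each class, taken as a description with no test, separated groups in H1, H2A, H2B and H3 and not in H4. The H1 sum was 116.9 ± 1.85 FPKM (SD, n = 3) in DMSO, 120.2 ± 1.1 in EpA, 135.1 ± 0.76 in fatostatin and 131.2 ± 1.75 in EpA+fatostatin, most of which was H1f0. Without H1f0 it was 14.5 ± 0.52, 13.3 ± 1.03, 16.9 ± 0.83 and 14.98 ± 0.50 FPKM in the same order. The fatostatin libraries (16.4 to 17.9 FPKM) stood above all others there.

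The H2A sum was 22.3 ± 0.86 FPKM (SD, n = 3) in DMSO, 17.0 ± 1.16 in EpA, 21.2 ± 1.09 in fatostatin and 14.7 ± 1.19 in EpA+fatostatin. Each library with EpA (13.6 to 18.3 FPKM) lay below each library without it (20.5 to 23.2 FPKM). Without H2ac10, the highest H2A gene, the libraries with EpA spanned 10.8 to 14.8 FPKM and those without it 15.3 to 16.4. Reads of near-identical H2A genes can be exchanged between them, so the sum was also taken over the 7 H2A genes with under 50% of their 100-base windows in another gene. There the EpA libraries (4.92 to 6.62 FPKM) were below the DMSO libraries (6.87 to 7.18), whereas the EpA+fatostatin libraries (4.99 to 6.78) overlapped the fatostatin libraries (5.54 to 6.44).

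The H2B sum was 25.7 ± 0.87 FPKM in DMSO, 25.8 ± 0.76 in EpA, 29.2 ± 1.45 in fatostatin and 24.7 ± 0.20 in EpA+fatostatin. The 3 fatostatin libraries (27.6 to 30.5 FPKM) were above all others. The H3 sum was 19.1 ± 1.71, 17.8 ± 0.37, 19.1 ± 2.01 and 14.5 ± 1.68 FPKM in the same order of groups, and the EpA+fatostatin libraries (12.6 to 15.8 FPKM) were below all others. The H4 sums, at 28.5 ± 1.36, 27.8 ± 2.10, 30.6 ± 2.13 and 28.0 ± 0.38 FPKM, overlapped between all groups. Over the 64 core histone genes the sum was 95.7 ± 1.42, 88.5 ± 3.54, 100.1 ± 3.64 and 81.9 ± 1.29 FPKM in the same order. Over the 35 core genes with under 50% of their windows in another gene, the EpA libraries (55.1 to 56.3 FPKM) overlapped the DMSO libraries (56.0 to 61.5) and the EpA+fatostatin libraries (51.5 to 55.2), and the fatostatin libraries spanned 57.9 to 62.0. In bulk RNA, fewer cells in S phase and less histone mRNA per cell cannot be told apart.

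**Figure D3:**
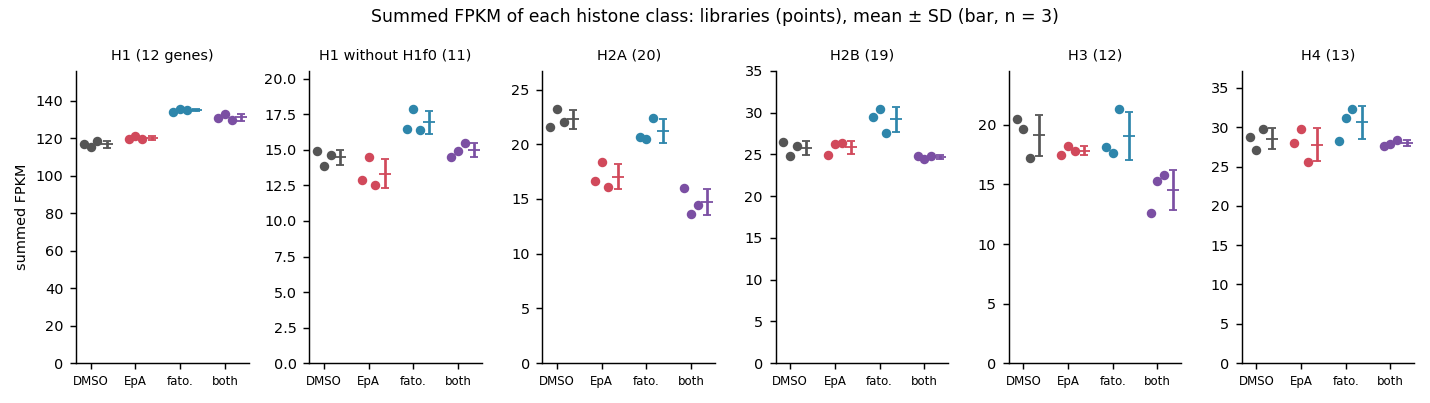
Summed FPKM of each histone class in each library (points), with the group mean ± SD (bars, n = 3). H2A is lower in the 6 libraries with EpA than in the 6 without, H2B is highest in fatostatin, H3 is lowest in EpA+fatostatin, and H4 overlaps between all groups.

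EpA was compared with DMSO to see what the compound changed in Th9 cells. Of the 57 tested genes, 3 rose and 2 fell at an adjusted p below 0.05, against 14.3% of all 13733 tested genes that rose and 13.1% that fell. Past 1.5-fold as well were 2 genes, against 3.38% of all. These counts, like every adjusted p in the text, come from limma on log2(FPKM + 0.1) with Benjamini-Hochberg adjustment over all tested genes, and fold changes are on that scale, which understates changes of low genes. The median log2 fold change of the 57 genes was -0.19, with 38 below 0, against 0.00 over all genes. By class it was -0.24 for H1, -0.30 for H2A, -0.03 for H2B, -0.09 for H3 and -0.18 for H4.

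H2bc27, an H2B gene on chromosome 11 apart from the main clusters, stood at 0.801, 1.12 and 0.674 FPKM in DMSO and at 1.72, 1.88 and 1.62 FPKM in EpA. The groups did not overlap. It rose by a log2 fold change of 0.96 ± 0.21 (SE; adjusted p = 0.00516), on 18 to 46 reads per library. H1f0 stood at 102, 101 and 104 FPKM in DMSO and at 107 FPKM in each EpA library, and rose by 0.06 ± 0.02 on the log2 scale (adjusted p = 0.0181). H1f10, the other replication-independent linker histone, stood at 2.33, 2.21 and 1.66 FPKM in DMSO and at 2.89, 2.68 and 2.48 in EpA. All its EpA libraries were above all DMSO libraries, and it rose by 0.37 ± 0.11 (adjusted p = 0.0236). Without DMSO replicate 3 the difference was 0.23 (adjusted p = 0.0528). An annotated gene on the opposite strand overlaps 17.5% of the H1f10 exons.

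Both genes that fell carried a stem-loop. H1f3, a replication-dependent linker histone, stood at 0.349, 0.306 and 0.303 FPKM in DMSO and at 0.190, 0.172 and 0.165 in EpA. These low FPKM rest on 51 to 98 reads per library, since the annotated gene is 7425 bases long, and the log2 fold change was -0.61 ± 0.16 (adjusted p = 0.0147). H3c6, an H3 gene of the same block on chromosome 13, stood at 1.76, 1.96 and 1.32 FPKM in DMSO and at 1.14, 1.14 and 1.07 in EpA. The groups again did not overlap, with a log2 fold change of -0.53 ± 0.15 (adjusted p = 0.0246).

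The other linker histones of S phase gave no call. H1f2 had a log2 fold change of -0.14 ± 0.07 (adjusted p = 0.155), H1f4 of -0.46 ± 0.26 (adjusted p = 0.216) and H1f5 of -0.34 ± 0.23 (adjusted p = 0.317). H1f1 had 0.13 ± 0.55 (adjusted p = 0.892), with 1.03, 0.132 and 1.06 FPKM in DMSO and 0.339, 0.88 and 0.829 in EpA. H2bc12, at 2.75, 3.8 and 3.62 FPKM in DMSO and 3.75, 5.27 and 4.56 in EpA, missed the threshold with 0.41 ± 0.14 (adjusted p = 0.055), and its groups overlapped. For H2ac10 the EpA libraries (3.58 to 4.26 FPKM) were all below the DMSO libraries (6.02 to 6.87), with a log2 fold change of -0.71 ± 0.42 (adjusted p = 0.255) in the fit, where the spread of the EpA+fatostatin libraries also enters. The EpA libraries of H1f2, H1f4, H2ac12, H2bc21 and H4c3 were also all below the DMSO libraries without a call. Those of H2ac25 and H3c1 were all above them, again without a call. H4c9 differed by 0.07 ± 0.07 (adjusted p = 0.566). None of the 13 H2A and 12 H4 genes was called by limma, although 11 and 9 of them had a negative fold change, and 1 and 0 had an unadjusted p below 0.05, against 37.5% of all genes. With voom on the recovered reads, 1 gene of the 57 was called higher, against 15.1% of all genes, and 2 lower, against 14.4%. The 2 were H1f3 and H2ac10 (adjusted p = 0.046 with voom).

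Fatostatin was compared with DMSO to see what SREBP inhibition changed in the same culture. Here 4 of the 57 genes rose, against 7.69% of all genes, and 0 fell, against 6.31% of all. Past 1.5-fold were 2 of the 4, against 1.86% of all genes. No gene was called lower under voom either, against 7.35% of all genes, and of the 57 genes 9 had an unadjusted p below 0.05 in either direction, against 26.8% of all. The median log2 fold change was 0.08, with 36 of 57 above 0, against 0.01 over all genes. It was highest for H2B, at 0.37, and for H1, at 0.18, and it was -0.05 for H2A, -0.01 for H3 and 0.07 for H4.

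H1f0 rose from 102, 101 and 104 FPKM to 118, 118 and 119 FPKM, with no overlap, by a log2 fold change of 0.21 ± 0.02 (adjusted p = 1.06e-05). It had the smallest SE of the 57 genes, on 7666 to 10739 reads per library. H2bc21, an H2B gene on chromosome 3 with a long 3′ UTR and no stem-loop found, stood at 1.32, 1.35 and 1.52 FPKM in DMSO and at 2.18, 1.79 and 1.83 in fatostatin. It rose by 0.44 ± 0.10 (adjusted p = 0.0104), and the groups did not overlap.

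H2ac22 and H2bc7 had the larger fold changes and far fewer reads. H2ac22 stood at 0.834, 0.623 and 0.468 FPKM in DMSO and at 1.03, 1.60 and 1.51 in fatostatin, on 8 to 25 reads per library, and rose by 1.00 ± 0.23 (adjusted p = 0.0145). Of its 100-base windows 83.3% were found in another gene, and an annotated gene on the opposite strand overlaps 35.9% of its exon. H2bc7 stood at 0.593, 0.212 and 0.200 FPKM in DMSO and at 1.03, 1.03 and 0.696 in fatostatin, on 4 to 21 reads, and rose by 1.32 ± 0.36 (adjusted p = 0.0313). The lowest fatostatin library of H2bc7 was close to the highest DMSO library.

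H2bc12 and H2bc4 came next and missed the threshold. H2bc12 had a log2 fold change of 0.44 ± 0.14 (adjusted p = 0.0628), with 4.21, 4.85 and 4.77 FPKM in fatostatin. H2bc4 had 0.52 ± 0.17 (adjusted p = 0.0654), with 1.25, 1.33 and 1.59 FPKM in DMSO and 1.75, 2.04 and 2.35 in fatostatin. H1f5 was at 2.28, 2.01 and 2.57 FPKM in DMSO and at 3.31, 3.51 and 3.79 in fatostatin, with no overlap and 0.61 ± 0.23 (adjusted p = 0.112). Each of these 3 genes lay above every DMSO library in every fatostatin library, without a call, as did H2bc23 (0.42 ± 0.28, adjusted p = 0.386) and H3c7 (0.28 ± 0.18, adjusted p = 0.363). In H2ac8 the fatostatin libraries, at 2.94, 3.03 and 3.40 FPKM, were all below the DMSO libraries, at 4.54, 4.31 and 3.53 FPKM, again without a call (-0.38 ± 0.15, adjusted p = 0.122). The share of all genes whose libraries separate in this way was not counted in any of the comparisons. Nothing is therefore read from such a separation without a call. The H1f10 difference was 0.20 ± 0.11 (adjusted p = 0.261) and the H1f2 difference 0.16 ± 0.07 (adjusted p = 0.152).

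The EpA+fatostatin group was compared with EpA to see what fatostatin changed in the presence of EpA. There 3 of the 57 genes rose, against 9.22% of all genes, and 1 fell, against 6.79%. Past 1.5-fold were 2, against 1.99% of all. The median log2 fold change was -0.02, with 34 of 57 below 0, against 0.01 over all genes, and the H3 genes had the lowest class median, -0.37.

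All 3 genes that rose had a long 3′ UTR with no stem-loop found. H1f0 went from 107 FPKM in each EpA library to 116, 118 and 114 FPKM, by 0.12 ± 0.02 (adjusted p = 0.000616). H2bc21 went from 1.29, 1.13 and 1.2 FPKM to 1.70, 1.59 and 1.46, by 0.37 ± 0.10 (adjusted p = 0.0232). H2bc4 went from 1.83, 1.04 and 1.31 FPKM to 2.18, 2.12 and 1.98, by 0.59 ± 0.17 (adjusted p = 0.0365). In none of the 3 did the groups overlap.

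H3c8, an H3 gene with a stem-loop, was the gene that fell. It went from 1.47, 1.52 and 1.69 FPKM to 0.533, 0.908 and 0.967 FPKM, by -0.91 ± 0.25 on the log2 scale (adjusted p = 0.0266), on 12 to 38 reads per library. H3c1 followed without a call, with -0.71 ± 0.23 (adjusted p = 0.0598), and 1.55, 1.88 and 1.90 FPKM against 1.1, 0.676 and 1.51. H1f2 and H1f10 missed the threshold in the other direction, with 0.20 ± 0.07 (adjusted p = 0.0644) and 0.29 ± 0.11 (adjusted p = 0.0923), as did H2ac15 with 0.55 ± 0.21 (adjusted p = 0.109), and in all 3 the EpA+fatostatin libraries were above the EpA libraries. H3c10 and H3c6 had -0.41 ± 0.16 (adjusted p = 0.116) and -0.38 ± 0.15 (adjusted p = 0.124). In H3c1, H3c10 and H3c6, too, the EpA+fatostatin libraries were all below the EpA libraries. Here as well, nothing is read from a separation without a call.

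The EpA+fatostatin group was also compared with fatostatin, which gives what EpA changed in the presence of fatostatin. Of the 57 genes, 1 rose, against 16.2% of all genes, and 8 fell, against 13.3% of all. The 8 that fell made up a share of the 57 close to that of all genes. All 8 were past 1.5-fold, against 3.75% of all genes past both thresholds in either direction. The members had a median of 32.0 reads per library, against 909.0 for all tested genes. With few reads a small fold change is hard to call, so that the shares past 1.5-fold are not comparable. The median log2 fold change was -0.32, with 47 of 57 below 0, against 0.01 over all genes, and the 5 class medians ran from -0.43 for H3 to -0.15 for H4. This comparison shares its EpA+fatostatin libraries with the one before and its fatostatin libraries with fatostatin against DMSO. The calls of H2ac22 and H2bc7, higher in fatostatin against DMSO and lower here, rest on the same fatostatin libraries and are not independent.

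H1f10 was the gene that rose, from 2.33, 2.45 and 2.33 FPKM to 3.11, 3.44 and 3.37, by 0.46 ± 0.11 (adjusted p = 0.00724), with no overlap. H1f3 went the other way, from 0.334, 0.443 and 0.432 FPKM to 0.228, 0.172 and 0.168, by -0.80 ± 0.16 (adjusted p = 0.00284). H1f5 went from 3.31, 3.51 and 3.79 FPKM to 1.87, 2.07 and 1.90, by -0.83 ± 0.23 (adjusted p = 0.0192). The linker histones thus held genes called in both directions, and H1f0, at -0.02 ± 0.02 (adjusted p = 0.323), was called in neither.

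Both H3 genes that fell were among those named above. H3c6 went from 1.56, 1.32 and 1.83 FPKM to 0.929, 0.892 and 0.701, by -0.83 ± 0.15 (adjusted p = 0.00194). H3c8 went from 1.11, 1.18 and 1.91 FPKM to 0.533, 0.908 and 0.967, by -0.73 ± 0.25 (adjusted p = 0.044). In both genes every EpA+fatostatin library was below every fatostatin library.

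Of the H2A genes, H2ac22 went from 1.03, 1.60 and 1.51 FPKM to 0.539, 0.979 and 0.559, by -0.92 ± 0.23 (adjusted p = 0.0118). H2ac10 went from 4.97, 4.78 and 6.74 FPKM to 5.13, 0.965 and 1.59, by -1.39 ± 0.42 (adjusted p = 0.029). The first EpA+fatostatin library of H2ac10 lay within the fatostatin range, so that its groups overlapped, and 79.3% of its windows were found in another gene.

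Of the H2B genes, H2bc13 went from 1.83, 1.84 and 1.36 FPKM to 0.926, 1.26 and 0.769, by -0.73 ± 0.22 (adjusted p = 0.0285). H2bc7 went from 1.03, 1.03 and 0.696 FPKM to 0.408, 0.209 and 0.635, by -1.05 ± 0.36 (adjusted p = 0.0494), just inside the threshold. H2bc27, which rose in EpA against DMSO, had 0.22 ± 0.21 here (adjusted p = 0.483), and its groups overlapped. Just outside the threshold stood H3c7, at -0.52 ± 0.18 (adjusted p = 0.0502), with 0.608, 0.637 and 0.724 FPKM in fatostatin and 0.336, 0.591 and 0.387 in EpA+fatostatin, and H2bc21, at -0.27 ± 0.10 (adjusted p = 0.0536). H2ac12 followed with -1.36 ± 0.49 (adjusted p = 0.0578), on 0 to 14 reads per library, and was called lower with voom (adjusted p = 0.0367). No H4 gene was called, 10 of the 12 had a negative fold change, and 1 had an unadjusted p below 0.05, against 39.6% of all genes.

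**Figure D4:**
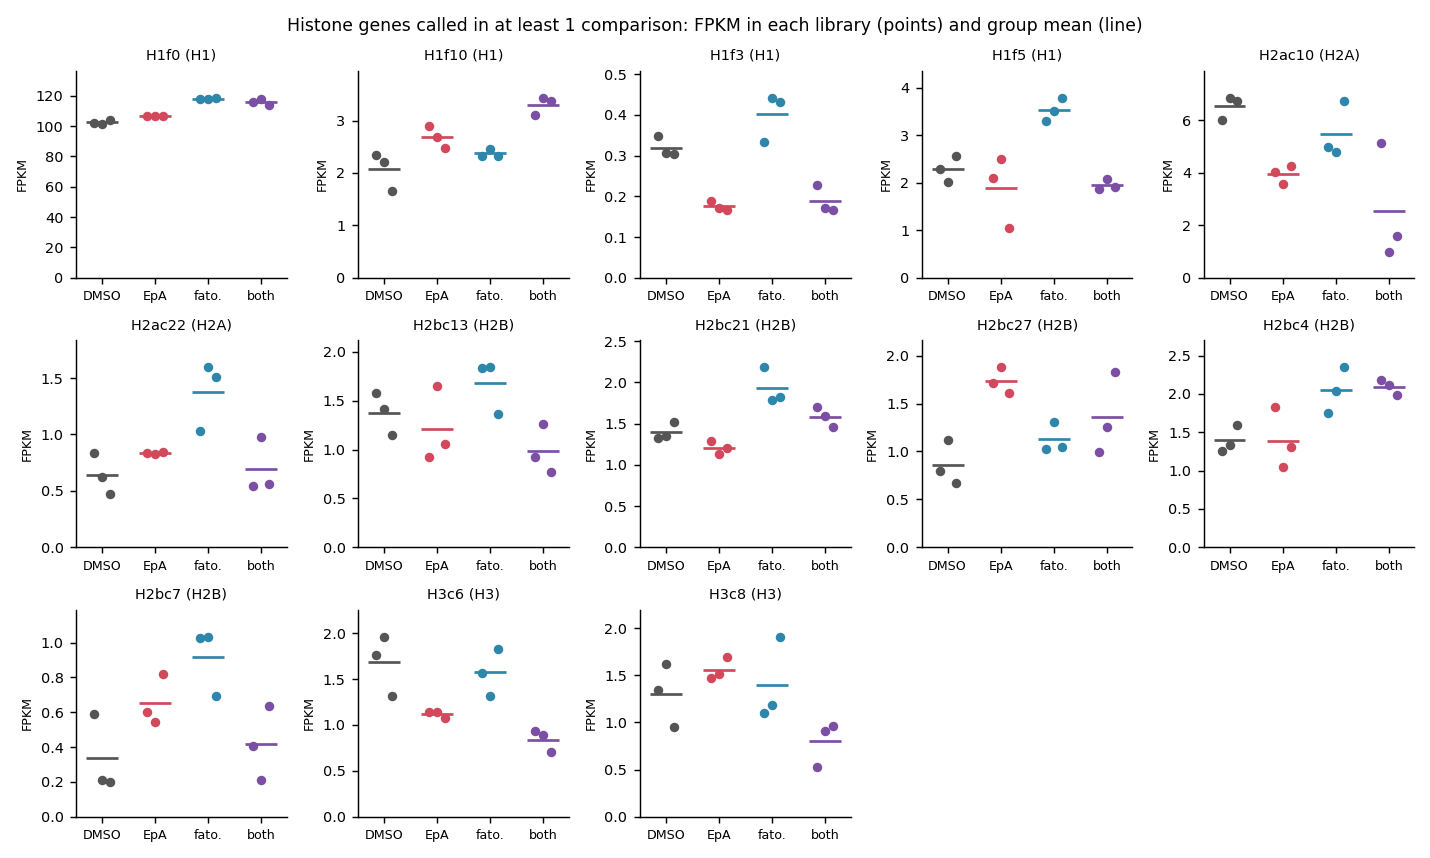
FPKM in each library (points) and group mean (line) of the 13 histone genes called in at least 1 comparison, on axes that start at 0. H1f0, H2bc21 and H2bc4 have higher means with fatostatin than without, H1f3 and H3c6 have lower and H1f10 higher means with EpA than without, and H2ac22, H2bc7, H1f5 and H2bc13 have their highest mean in fatostatin.

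**Figure D5:**
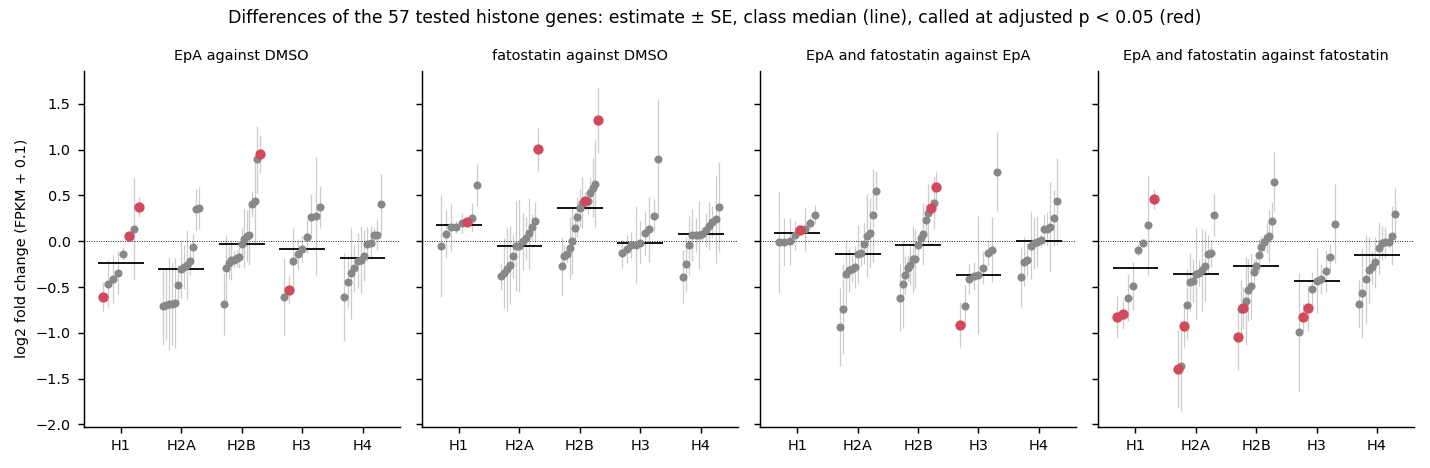
Log2 fold change ± SE of the 57 tested genes by class in the 4 comparisons, with the class median as a line and genes at an adjusted p below 0.05 in red. The points of EpA+fatostatin against fatostatin lie mostly below 0 in every class, with a median of -0.32, whereas those of fatostatin against DMSO lie around 0.08.

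Whether the effect of EpA differed with fatostatin was tested as the difference of both effects. None of the 57 genes was called by limma, against 0.0437% of all genes, which is 6 genes, and 7 of the 57 had an unadjusted p below 0.05, against 7.89% of all genes. With voom, 0 were called as well, against 0.109% of all genes called higher and 0.0364% lower. H2bc7 had the largest difference of the 5 genes with the smallest adjusted p, -1.94 ± 0.51 on the log2 scale (adjusted p = 0.365). H2ac22 had -1.28 ± 0.33 (adjusted p = 0.365), H2bc12 -0.74 ± 0.20 (adjusted p = 0.365) and H1f0 -0.09 ± 0.02 (adjusted p = 0.365). H3c8, with -0.999 ± 0.35 (adjusted p = 0.487), was the fifth, and H2bc27 followed with -0.74 ± 0.29 (adjusted p = 0.56).

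The calls differed in how much they rested on single libraries. In all, 22 calls were made in the 4 comparisons, on 13 genes, and 14 of the calls were past 1.5-fold. Of the 22, 8 held at an adjusted p below 0.05 without each of the 12 libraries in turn, and 7 kept an adjusted p below 0.05 under every alternative that was run for them. The 7 were H1f0 in both comparisons with fatostatin as the added compound, H2bc21 in fatostatin against DMSO, H2bc27 in EpA against DMSO, and H1f3, H1f10 and H3c6 in EpA+fatostatin against fatostatin. The eighth, H2ac22 in EpA+fatostatin against fatostatin, was lost under voom (adjusted p = 0.0582). In EpA against DMSO, H1f3 was lost without DMSO replicate 1 (adjusted p = 0.0535), H1f0 without DMSO replicate 1 or 2 or EpA replicate 1 (0.0503 to 0.0686), H1f10 without DMSO replicate 3 or EpA replicate 1 or 2 (0.0528 to 0.087), and H3c6 without DMSO replicate 1 or 2 or any EpA library (0.0546 to 0.0971).

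In fatostatin against DMSO, H2ac22 was lost without DMSO replicate 3 or fatostatin replicate 2 or 3 (adjusted p = 0.0536 to 0.0597), and H2bc7 without DMSO replicate 2 or 3 or fatostatin replicate 1 or 2 (0.0939 to 0.114). In EpA+fatostatin against EpA, H2bc21 was lost without EpA replicate 2 or 3 or EpA+fatostatin replicate 1 or 2 (0.0619 to 0.0853), H2bc4 without EpA replicate 2 or 3 or any EpA+fatostatin library (0.0654 to 0.121), and H3c8 without any EpA library or EpA+fatostatin replicate 1 (0.0578 to 0.093). In EpA+fatostatin against fatostatin, H1f5 was lost without fatostatin replicate 3 or EpA+fatostatin replicate 1 or 3 (0.0524 to 0.0599), and H2bc13 without fatostatin replicate 1 or 2 or EpA+fatostatin replicate 1 or 3 (0.072 to 0.105). H2ac10 was lost without any fatostatin library or EpA+fatostatin replicate 2 or 3 (0.052 to 0.0961), and its log2 fold change was -0.90 without EpA+fatostatin replicate 2 and -2.04 without EpA+fatostatin replicate 1. H3c8 was lost without 8 of the 12 libraries (0.0544 to 0.161), in turn DMSO replicate 1, the 3 EpA libraries, fatostatin replicates 2 and 3 and EpA+fatostatin replicates 1 and 2. H2bc7 was lost without 10 of the 12 (0.0503 to 0.176), all but DMSO replicate 1 and EpA+fatostatin replicate 3.

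The size of the log2 fold changes depended on the pseudocount. With a pseudocount of 1, 15 of the 22 called values, on 9 genes, were more than 1.5 times smaller, and all 15 had an adjusted p below 0.05. H1f3 moved from -0.80 to -0.24 in EpA+fatostatin against fatostatin and from -0.61 to -0.17 in EpA against DMSO, whereas voom gave -1.08 and -0.85. The other 8 genes were H2ac22, H2bc4, H2bc7, H2bc13, H2bc21, H2bc27, H3c6 and H3c8, and their values lay between 0.23 and 0.56 in size, so that none of the 15 was past 1.5-fold with that pseudocount.

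Some calls were also lost under other settings. In EpA against DMSO, voom on the recovered reads lost H1f0, H1f10 and H3c6, H1f0 was also lost with no intensity trend (adjusted p = 0.0596 to 0.0708 for H1f0) and H1f10 with only the groups compared (0.0695 to 0.0841), and H3c6 had 0.102. In fatostatin against DMSO, H2ac22 was lost under voom (0.0685), and H2bc7 with no minimum FPKM, no intensity trend or only the groups compared (0.0537 to 0.06). For EpA+fatostatin against EpA, H2bc21 was lost under voom (0.0556), H3c8 under voom or no minimum FPKM (0.051 to 0.0518), and H2bc4 with no minimum FPKM, no intensity trend, only the groups compared or a replicate block (0.0535 to 0.0936). For EpA+fatostatin against fatostatin, H2bc13 was lost under voom or no minimum FPKM (0.0542 to 0.106), and H2ac10 with no minimum FPKM, no intensity trend or only the groups compared (0.0522 to 0.108). H3c8 was lost under those 3 settings or voom (0.0661 to 0.1), and H2bc7 under 6 of the 8 other settings (0.0523 to 0.0875), which were those 4, TPM scaling and the replicate block.

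The annotated 3′ ends, which the choice of genes did not use, are set beside the calls here as a description. Of the 6 tested genes with a long 3′ UTR and no stem-loop, 2 rose in EpA against DMSO, 2 in fatostatin against DMSO, 3 in EpA+fatostatin against EpA and 1 in EpA+fatostatin against fatostatin, and 0 fell in any of these. Over all genes, 14.3%, 7.69%, 9.22% and 16.2% rose in these comparisons and 13.1%, 6.31%, 6.79% and 13.3% fell, and nothing is read from 0 falls among 6 genes. Of the 38 tested genes with a stem-loop, H2bc27 and H2bc7 rose, in 1 comparison each, and H1f3, H3c6, H3c8 and H2bc7 fell in at least 1. Of the 12 tested genes with a short 3′ UTR and no stem-loop found, H2ac22 rose in fatostatin against DMSO, and H1f5, H2ac10, H2ac22 and H2bc13 made up 4 of the 8 that fell in EpA+fatostatin against fatostatin. In EpA+fatostatin against fatostatin the median log2 fold change was 0.01 for the 6 genes, -0.32 for the 19 genes annotated to end within 100 bases of the stem-loop, -0.15 for the 19 annotated further on, and -0.49 for the 12 with a short 3′ UTR and no stem-loop found. H1f0, H1f8 and H1f10 are among the 6.

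The signs of genes back to back are given as counts, with no test. Starts on opposite strands within 1000 bases of each other gave 16 such pairs, and in 10 of them an H2A and an H2B gene were both tested. Their log2 fold changes had the same sign in 6 of the 10 pairs in EpA against DMSO, 2 in fatostatin against DMSO, 7 in EpA+fatostatin against EpA and 8 in EpA+fatostatin against fatostatin. In the last of these 47 of the 57 tested members were below 0, so that most pairs of any members would share a sign. Nothing is read from these counts about genes back to back. In fatostatin against DMSO, H2ac22 rose, whereas its partner H2bc22 stood at 0.348, 0.693 and 0.228 FPKM in DMSO and at 0.223, 0.320 and 0.385 in fatostatin. The partner of H2bc7, H2ac7, was at 0.208 FPKM on average in DMSO and 0.128 in fatostatin, on 1 to 9 reads per library.

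Other genes of histone supply and of the cell cycle were followed as lists. The shares of all genes to set beside their counts are 14.3% higher and 13.1% lower in EpA against DMSO, 7.69% and 6.31% in fatostatin against DMSO, 9.22% and 6.79% in EpA+fatostatin against EpA, and 16.2% and 13.3% in EpA+fatostatin against fatostatin. Replacement variants are histones made throughout the cell cycle, and 9 of them were tested. In EpA against DMSO, 1 rose, *H3f3b* (333 to 335 FPKM in DMSO, 379 to 386 in EpA; log2 fold change 0.19 ± 0.02, adjusted p = 1.67e-05), and 3 fell, among them *H2az2* (24.6 to 25.8 against 19.2 to 21.4 FPKM; -0.30 ± 0.04, adjusted p = 0.000216). In fatostatin against DMSO, *H2az2* rose by 0.20 ± 0.04 (adjusted p = 0.00685) and 3 variants fell, among them *Macroh2a1* with -0.11 ± 0.02 (adjusted p = 0.0077). In EpA+fatostatin against EpA 0 rose and 5 fell, and against fatostatin 1 rose and 3 fell.

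The 31 factors of histone gene transcription and histone mRNA 3′ end formation had 7 genes higher and 1 lower in EpA against DMSO, 3 and 1 in fatostatin against DMSO, 4 and 4 in EpA+fatostatin against EpA, and 7 and 3 against fatostatin. As shares these were 22.6% and 3.23%, 9.68% and 3.23%, 12.9% and 12.9%, and 22.6% and 9.68%, of which those in fatostatin against DMSO are close to the shares of all genes. *Slbp*, which encodes the stem-loop binding protein, stood at 33.6 to 35.0 FPKM in DMSO, 32.9 to 34.2 in EpA, 32.5 to 33.9 in fatostatin and 30.1 to 30.6 in EpA+fatostatin. It fell in EpA+fatostatin against EpA with a log2 fold change of -0.14 ± 0.02 (adjusted p = 0.00207) and against fatostatin with -0.12 ± 0.02 (adjusted p = 0.00287). *Npat* rose in EpA+fatostatin against fatostatin by 0.13 ± 0.04 (adjusted p = 0.0265), and *Casp8ap2* was called in none of the 4 comparisons (log2 fold changes of 0.01 to 0.07). *Srrt*, which acts with the nuclear cap-binding complex, fell in EpA against DMSO with a log2 fold change of -0.16 ± 0.02 (adjusted p = 6.01e-05), and *Ncbp1*, a subunit of that complex, rose by 0.15 ± 0.03 (adjusted p = 0.00304). In fatostatin against DMSO, *Ncbp2*, another subunit of it, rose by 0.17 ± 0.03 (adjusted p = 0.00266), and *Snrpe*, a core protein of small nuclear ribonucleoproteins, fell with -0.17 ± 0.03 (adjusted p = 0.00133).

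Of 25 tested histone chaperones and modifiers of new histones, 6 rose and 1 fell in EpA against DMSO, 0 and 3 did in fatostatin against DMSO, 1 and 7 in EpA+fatostatin against EpA, and 5 and 6 against fatostatin. As shares these were 24.0% and 4.0%, 0% and 12%, 4.0% and 28.0%, and 20% and 24.0%. *Hat1*, which acetylates new H4, rose with EpA by 0.17 ± 0.02 (adjusted p = 4.08e-05), and *Nasp*, a chaperone of H1 and of H3 with H4, rose by 0.13 ± 0.03 (adjusted p = 0.00241). With fatostatin, *Nap1l1*, a chaperone of H2A with H2B, fell with -0.13 ± 0.02 (adjusted p = 0.00101), and *Ssrp1*, a subunit of FACT, with -0.09 ± 0.02 (adjusted p = 0.00862).

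Of 47 genes of S phase, 1 rose and 14 fell in EpA against DMSO, 2 and 8 in fatostatin against DMSO, 0 and 22 in EpA+fatostatin against EpA, and 1 and 21 against fatostatin. The genes that fell were 29.8%, 17.0%, 46.8% and 44.7% of the list, against 13.1%, 6.31%, 6.79% and 13.3% of all genes. Their median log2 fold changes were -0.03, -0.05, -0.09 and -0.07, so that the falls were small, and 0 genes passed 1.5-fold. The gene that rose with EpA was *Ccne2*, a cyclin of S phase entry (0.36 ± 0.03, adjusted p = 8.01e-06), and *Lig1*, the ligase of replication, fell from 120 to 122 FPKM to 99.2 to 105 (-0.24 ± 0.02, adjusted p = 7.51e-06). Fatostatin against DMSO had falls of *Ccna2*, cyclin A2 (-0.16 ± 0.02), and *Mcm5*, a subunit of the replicative helicase (-0.12 ± 0.02, adjusted p = 0.00201). Of 23 genes of G2 and mitosis, 1 rose and 6 fell in EpA against DMSO, 0 and 12 in fatostatin against DMSO, 0 and 16 in EpA+fatostatin against EpA, and 0 and 14 against fatostatin, with median log2 fold changes of -0.06, -0.16, -0.20 and -0.11. The genes that fell were 26.1%, 52.2%, 69.6% and 60.9% of that list. *Ccnb2*, cyclin B2, and *Mad2l1*, of the spindle checkpoint, fell in EpA against DMSO with -0.26 ± 0.03 and -0.17 ± 0.03 (adjusted p = 0.00166 for *Mad2l1*). *Cdk1*, the kinase of mitotic entry, fell in fatostatin against DMSO with a log2 fold change of -0.23 ± 0.02 (adjusted p = 2.28e-05), and *Aurkb*, a mitotic kinase, with -0.22 ± 0.02. The part of the cell cycle genes in the histone values was not tested. None of these lists had a gene called in the difference of the EpA effects.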

How the data were processed

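RNA of Th9 cells was sequenced in 4 groups of 3 libraries. According to the study's methods, reads were trimmed with Trim Galore, aligned with HISAT2 to GRCm38 and counted with featureCounts, and the authors deposited FPKM values per gene. The annotation release, the strand setting and the treatment of reads with several positions are not given in the sources used here. The table had 32352 lines for 32051 genes, and repeated lines held the same values. The 13733 genes averaging 0.1 FPKM or more were tested with limma 3.58.1 in R 4.3.3 on log2(FPKM + 0.1), in a single fit with a mean per group and an intensity trend, with Benjamini-Hochberg adjustment over all tested genes. Reads were recovered from the FPKM values and GENCODE gene lengths, and voom on these reads was an alternative. Of the nonzero values in the lower range of reads, 98.3% to 98.5% were whole (tolerance 0.05 reads), and higher values were not part of this check. Other alternatives were the pseudocount, the minimum FPKM, TPM and median ratio scaling, no intensity trend, only the groups compared, a replicate block, genes with few shared windows, and each library left out in turn. By rule, the text names the tested H1 genes, the 3 highest genes of each other class, the histone genes past both thresholds, the 5 with the smallest adjusted p in each comparison, and, of each context list, the 2 with the smallest adjusted p in both comparisons with DMSO, with Slbp, Npat and Casp8ap2. Other uncalled genes and neighbors were chosen after their values were seen. The histone genes and the lists were chosen with earlier results of these data known. Depth was 36019740 to 43656682 reads on genes per library. Sequences came from GENCODE transcripts and RefSeq promoters.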

Additional observations from a re-analysis of the deposited data

How the results depend on the processing

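No called difference of a histone gene changed its direction under an alternative that was run for it. Of the counts, the 3 genes higher in EpA against DMSO were 1 with voom on the recovered reads (against 15.1% of all genes), and the 2 lower were 1 with a minimum mean of 1 FPKM. The 1 gene lower in EpA+fatostatin against EpA became 0 with no minimum FPKM, 2 with a minimum mean of 1 FPKM, 3 with a replicate block and 0 with voom (against 7.71% of all genes). The 8 lower in EpA+fatostatin against fatostatin, against 13.3% of all genes, became 4 with no minimum FPKM and 5 with a minimum mean of 1 FPKM. They became 5 with voom, against 15.1% of all genes, and 5 among genes with under 50% of their windows shared. Shares of all genes under the other settings are not given here. The cause was not tested, except that the last and the minimum of 1 FPKM test fewer genes. Leaving out each library in turn gave 2 to 4 higher and 0 to 3 lower in EpA against DMSO, 2 to 6 higher and 0 lower in fatostatin against DMSO, 1 to 4 higher and 0 to 2 lower in EpA+fatostatin against EpA, and 1 higher and 4 to 8 lower in EpA+fatostatin against fatostatin. The difference of the EpA effects stayed at 0.

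The replicate block gave 4 higher and 2 lower in EpA against DMSO, 5 and 0 in fatostatin against DMSO, 2 and 3 in EpA+fatostatin against EpA, 1 and 9 against fatostatin, and 0 for the difference. The labels do not say that a number marks a shared animal or day, and deviations of same-numbered libraries correlated at -0.05 to 0.07, so that the numbers were not taken to pair the libraries. As a hint from the data the other way, 7 of 12 libraries correlated best with a library of their own number.

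Among the gene values followed, the sign changed for 10, all of H1 genes with no call. All tested H1 genes were followed in every comparison between groups. Core histone genes were followed only where they were called or had among the smallest adjusted p of a comparison. Most uncalled core histone values were therefore not followed, and whether their sign changed was not tested. The 10 changes thus do not compare H1 with core histone genes. H1f1 in EpA against DMSO had a log2 fold change of -0.0127 with a pseudocount of 1 and -0.63 to 0.52 with a library left out. In EpA+fatostatin against EpA it had 0.0086 with TPM scaling and -0.38 to 0.20 with a library left out, and against fatostatin -0.11 to 0.40. In fatostatin against DMSO it had 0.0168 with TPM scaling, 0.0516 with voom and -0.82 to 0.34 with a library left out. In EpA+fatostatin against EpA, H1f4 had 0.0158 with a pseudocount of 1 and -0.28 to 0.27 with a library left out, H1f8 had 0.0056 with TPM scaling and -0.22 to 0.24, H1f3 had -0.0316 to 0.12 and H1f5 -0.22 to 0.36 with a library left out. H1f5 in EpA against DMSO had -0.58 to 0.0092, and H1f8 in fatostatin against DMSO -0.12 to 0.27. Fitting only the groups compared gives no value for the difference of the EpA effects. Low read numbers limit most of these genes.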
